A study of Mus musculus with 75 samples.

Results

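The 10 genes described here carry purinergic signalling, the signalling by extracellular ATP and its breakdown products, and the gap junctions of glia. They were taken by symbol from the deposited count tables: the nucleotide receptors P2ry1, P2ry2 and P2rx7, the nucleotide-degrading surface enzymes Entpd1, Entpd2 and Nt5e, the adenosine receptors Adora2a and Adora2b, the ATP-release channel Panx1, and Gja1, which encodes the gap junction protein connexin 43. All 10 were found among the 21051 rows of the table of untreated and 2 h libraries and among the 21076 rows of the 24 h table, and all 10 passed the filter on low counts in each of the 3 experiments. The series holds 75 libraries in 16 groups, made from cells labelled as enteric glial cells (EGC) of adult mice of both sexes. Every mouse carried a transgene that drives a green fluorescent protein in glia (eGFP reporter). In the first experiment, untreated eGFP reporter mice gave 22 libraries: 5 of the colon myenteric plexus, 6 of the small-intestinal (SI) myenteric plexus, 5 of the colon submucosal plexus and 6 of the SI submucosal plexus. In the second, eGFP reporter mice received PBS or LPS (lipopolysaccharide of E. coli O111:B4, one intraperitoneal dose of 2 mg/kg), and the myenteric plexus was taken at 2 h, with 4 libraries for each treatment in each region. In the third, Gpr37WT reporter mice (wild type) and Gpr37-/- reporter mice (knockout) received PBS or the same LPS dose, and the myenteric plexus was taken at 24 h. The wild-type groups held 6 SI and 4 colon libraries with PBS and 4 SI and 5 colon libraries with LPS. The knockout groups held 4 SI and 5 colon libraries with PBS and 5 SI and 4 colon libraries with LPS. Gpr37 encodes an orphan receptor of glia.

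Enteric glia surround the neurons of the gut wall and respond to ATP released by them with rises of intracellular calcium, which spread through the glial network. ADP at P2Y1 (P2ry1) and ATP or UTP at P2Y2 (P2ry2) act through the Gq pathway, whereas P2X7 (P2rx7) is a cation channel opened by ATP. Connexin 43 and pannexin 1 (Panx1) let ATP out of the cell, NTPDase1 (Entpd1, also CD39) and NTPDase2 (Entpd2) cut ATP at the cell surface, and CD73 (Nt5e) turns AMP into adenosine for the receptors encoded by Adora2a and Adora2b. NTPDase2 is known as the surface ATPase of enteric glia, and NTPDase1 as one of leukocytes and vessels. P2Y1 is also carried by the PDGFRA-positive fibroblast-like cells of the muscle wall, where it relays inhibitory input from neurons.

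Total counts ran from 2547296 to 9002546 per library in untreated mice, from 1990744 to 7883251 at 2 h and from 2882539 to 33283346 at 24 h. Values below are CPM (counts per 1000000 counts of the library, scaled by edgeR's TMM factors). A count of 0 allows up to 3 counts, which is 0.329 to 1.11 CPM in untreated, 0.359 to 1.46 CPM in 2 h and 0.0933 to 1.09 CPM in 24 h libraries, for counting error alone. The 8 glial markers, Sox10, S100b and Gfap among them, all had counts in each untreated group. Their summed level was 6082 to 12982 CPM in colon and 8968 to 13759 CPM in SI myenteric libraries, but 1048 to 5091 CPM in colon and 522 to 1899 CPM in SI submucosal libraries. Summed macrophage markers (7 genes) reached 10435 CPM in SI submucosal libraries and summed epithelial markers (5 genes) 6840 CPM in colon submucosal ones. Colon submucosal library 2 stood apart, with the highest glial sum of its group (5091 CPM) and 92.5 CPM of macrophage markers where the 4 others had 2327 to 4434 CPM. Gpr37 had 18 counts in all over the 18 knockout libraries and 1229 over the 19 wild-type libraries. Of the wild-type libraries 4 had 3 or fewer Gpr37 counts, among them both libraries of mouse 3. Mitochondrial genes took a median of 15.4% of counts in the 12 libraries from mice 1 to 10 and of 4.57% in the 25 from mice 11 and above, a division seen in the data and not given by the labels. The labels do not say whether libraries of the first 2 experiments came from separate mice, so p-values measure the spread between libraries. In such bulk samples fewer cells of a type and less RNA per cell cannot be told apart.

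The 250 bases before the start of the 4 genes on which most results turn are shown because these genes differed between sites or after LPS. The sequences are from RefSeq on GRCm38.p6, where 9 of the 10 genes had a promoter window, and run 5′ to 3′ on the strand of the gene. Capitals mark an AP-1 motif (TGANTCA) or a GC box (GGGCGG), searched on both strands. No match in these windows overlapped another.
Gja1, chr10:56377050-56377299, plus strand: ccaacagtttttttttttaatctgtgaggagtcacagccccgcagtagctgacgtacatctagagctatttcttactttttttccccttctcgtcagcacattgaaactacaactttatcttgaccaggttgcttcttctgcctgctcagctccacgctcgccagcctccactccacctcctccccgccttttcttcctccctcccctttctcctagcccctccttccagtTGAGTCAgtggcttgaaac
Entpd2, chr2:25395624-25395873, plus strand: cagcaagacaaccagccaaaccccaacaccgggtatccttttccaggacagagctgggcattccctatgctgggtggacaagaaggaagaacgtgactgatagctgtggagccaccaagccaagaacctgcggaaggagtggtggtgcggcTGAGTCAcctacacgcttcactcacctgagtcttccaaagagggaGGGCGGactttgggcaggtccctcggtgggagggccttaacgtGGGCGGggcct
P2ry1, chr3:61002535-61002784, plus strand: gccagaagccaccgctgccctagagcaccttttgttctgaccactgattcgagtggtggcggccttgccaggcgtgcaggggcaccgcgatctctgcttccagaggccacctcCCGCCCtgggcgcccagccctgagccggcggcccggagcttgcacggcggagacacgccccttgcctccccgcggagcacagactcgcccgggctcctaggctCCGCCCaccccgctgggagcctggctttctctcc
Entpd1, start 1, chr19:40612116-40612365, plus strand: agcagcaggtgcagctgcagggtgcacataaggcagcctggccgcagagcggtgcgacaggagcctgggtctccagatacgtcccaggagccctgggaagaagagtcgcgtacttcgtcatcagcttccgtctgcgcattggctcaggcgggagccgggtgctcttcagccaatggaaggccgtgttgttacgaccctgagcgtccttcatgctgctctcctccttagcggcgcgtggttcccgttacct
Entpd1, start 2, chr19:40659520-40659769, plus strand: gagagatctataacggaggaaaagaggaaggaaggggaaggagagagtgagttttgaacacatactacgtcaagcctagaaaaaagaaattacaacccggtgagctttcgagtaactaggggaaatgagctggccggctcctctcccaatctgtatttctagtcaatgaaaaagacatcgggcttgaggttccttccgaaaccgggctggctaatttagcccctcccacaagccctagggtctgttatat
Gja1 held 1 AP-1 motif, 13 bases before the start, and Entpd2 held 1 at 93 bases. The AP-1 motif occurred in 6.75% of all 32851 RefSeq promoter windows of this length. GC boxes were found in the windows of Entpd2 (2) and P2ry1 (2) but not in those of Gja1 or Entpd1, against 32.7% of all windows with at least 1. None of the windows printed held an NF-kB motif (7.25% of all windows), a GAS motif (TTCNNNGAA, 7.02%), a TATA box (TATAAA, 12.4%) or a SOX motif (ACAAAG, 16.5%). The GC content was 50.0% for Gja1, 59.2% for Entpd2, 70.8% for P2ry1 and 62.4% and 47.2% for Entpd1, with a median of 52.4% over all windows. A match or its absence describes these letters in this window and says nothing about binding.

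In untreated glia the members differed widely in level per kilobase of exon (CPM divided by the summed exon length of the gene). Entpd2, with 2.13 kb of exons, had 98.6 ± 24.5 CPM per kb (SD, n = 6) in the SI and 92.2 ± 11.2 (n = 5) in the colon myenteric plexus. In the colon myenteric plexus Gja1 followed with 28.0 ± 15.1 and P2ry1 with 26.3 ± 20.5 CPM per kb, a pair that did not differ beyond their spread. P2rx7, Entpd1, Panx1 and P2ry2 lay there between 3.06 and 6.70 CPM per kb, and Adora2a, Nt5e and Adora2b below 2. In the SI myenteric plexus the next places after Entpd2 were held by P2rx7 (11.3 ± 4.16), Entpd1 (10.3 ± 2.63) and Gja1 (7.51 ± 4.21 CPM per kb), whose ranges within 1 SD overlapped. In the SI submucosal plexus Entpd1 (25.4 ± 9.19) and Entpd2 (23.1 ± 13.3 CPM per kb) were level within their spread, and Gja1 was eighth of 10 with 2.18 ± 1.71. Adora2b (0.714 ± 0.459 CPM per kb) and P2ry2 (0.720 ± 0.889) were lowest there. In the colon submucosal plexus Entpd2 (113 ± 94.1) and Entpd1 (26.1 ± 6.12 CPM per kb) led, with a wide spread of the former. Adora2b had no count in 4 of 6 SI and 3 of 5 colon myenteric libraries.

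**Figure D1:**
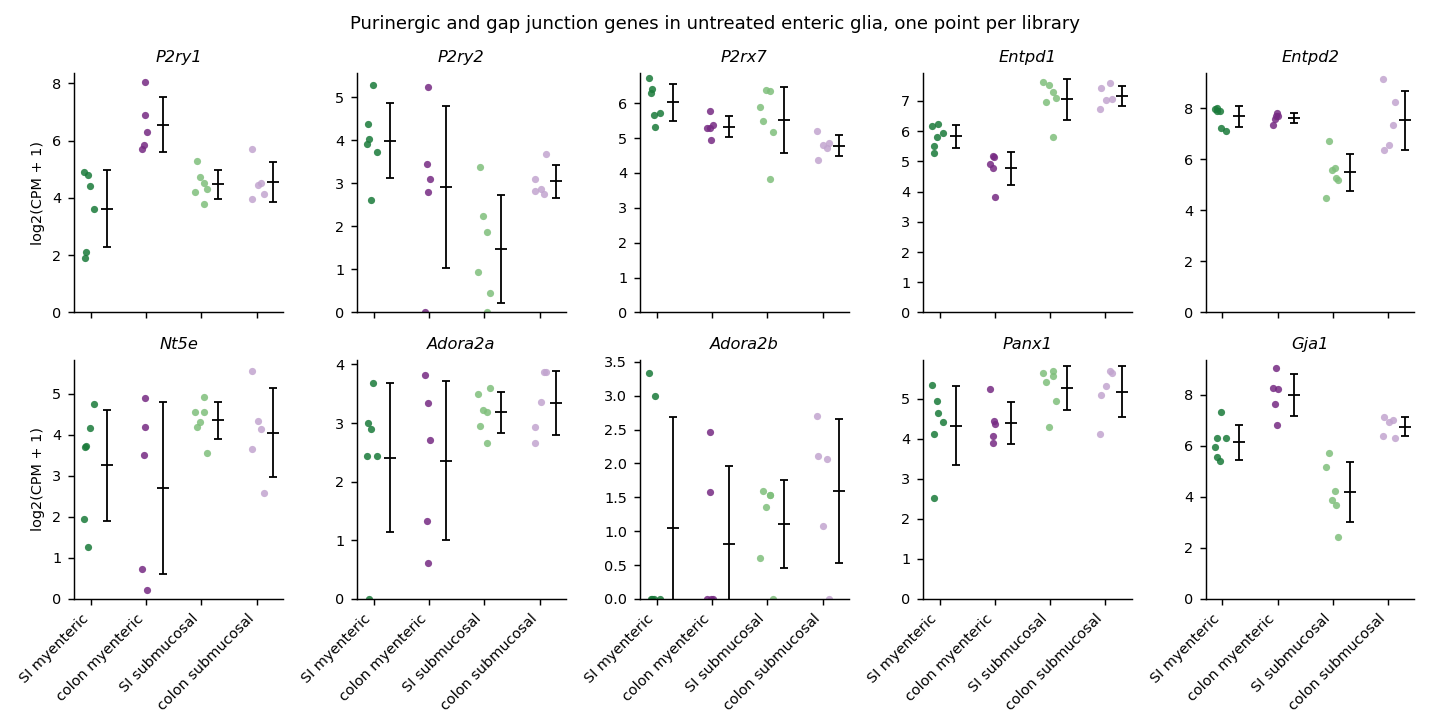
Level of the 10 genes in each untreated library on the log2(CPM + 1) scale, by site (SI is small intestine), with points for libraries and the black mark and bar for the mean and SD on that scale. P2ry1 and Gja1 are high in the colon myenteric plexus (means 113 and 287 CPM), Entpd1 is high in both submucosal sites (145 and 142 CPM), and Entpd2 is low in the SI submucosal plexus (49.1 CPM).

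The first comparison asked where along the gut these genes differ. Between the colon and the SI myenteric plexus of untreated mice 2 of the 10 genes differed, both higher in the colon: P2ry1, 7.24-fold, and Gja1, 3.73-fold. Over all genes tested, 3.19% were called in this contrast (edgeR's quasi-likelihood test, Benjamini-Hochberg adjusted p under 0.05, the rule used throughout). P2ry1 (chromosome 3, 61002785 to 61008982) had 50.9, 56.8, 77.1, 117 and 263 CPM in the 5 colon myenteric libraries. In the 6 SI myenteric libraries its lowest, median and highest values were 2.71, 15.8 and 29.1 CPM. The groups did not overlap, and the log2 fold change was 2.86 ± 0.56 (SE; adjusted p = 0.00867). Gja1 (chromosome 10, 56377300 to 56390419) had 111, 196, 300, 304 and 524 CPM in the colon and a lowest, median and highest value of 41.2, 69.2 and 159 CPM in the SI. Here the lowest colon library lay within the SI range, and the log2 fold change was 1.90 ± 0.47 (adjusted p = 0.0306). The P2ry1 difference was called in each of 11 refits without 1 library. That of Gja1 was called in 5 of 11 and lost without colon library 3 or any of SI libraries 2 to 6 (log2 fold change 1.57 to 2.20 over the 11 refits, adjusted p up to 0.0810).

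Entpd1, on chromosome 19 (40612366 to 40741602), had 13.1, 26.6, 29.1, 34.3 and 34.8 CPM in the colon myenteric plexus and 37.4, 57.5 and 74.5 CPM as lowest, median and highest in the SI. All 5 colon libraries lay below all 6 SI libraries. The log2 difference was -1.05 ± 0.29 with an adjusted p of 0.0508, just past the threshold, and with RLE size factors in place of TMM it was 0.0421. The 7 other members, Entpd2 among them (196 ± 23.8 CPM in the colon, 210 ± 52.2 CPM in the SI), had adjusted p-values from 0.265 to 0.993. The marker sums of other cell types also differed between these groups. Neuronal markers (8 genes) summed to 126 to 309 CPM in the colon and 655 to 2431 CPM in the SI, and markers of interstitial cells of Cajal (3 genes) to 291 to 1002 CPM and 94.9 to 199 CPM, both without overlap. Smooth muscle markers (6 genes) summed to 7099 to 22793 CPM in the colon and 1190 to 8337 CPM in the SI. Fibroblast and PDGFRA cell markers (5 genes) summed to 3229 to 12846 CPM in the colon and 1613 to 3466 CPM in the SI, while macrophage markers were lower in the colon (73.4 to 481 CPM against 124 to 2033 CPM). All these markers had counts in both groups, and their part in the region results was not tested.

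In the submucosal plexus 2 of the 10 genes were higher in the colon, Entpd2 4.88-fold and Gja1 4.86-fold, with 5.18% of all genes called. Entpd2 (chromosome 2, 25395874 to 25401323) had 81.5, 92.1, 163, 299 and 562 CPM in the colon and 21.4, 42.1 and 103 CPM as lowest, median and highest in the SI. The groups overlapped through SI library 2 (103 CPM). The log2 fold change was 2.29 ± 0.42 (adjusted p = 0.00228), and it was 1.69 (adjusted p = 0.0118) without colon library 2, the one with 562 CPM, while the call held in 11 of 11 refits without 1 library. Gja1 had 78.2, 81.3, 121, 128 and 140 CPM in the colon submucosal plexus, above every SI library (4.31, 15.8 and 51.4 CPM as lowest, median and highest). Its log2 fold change was 2.28 ± 0.48 (adjusted p = 0.00685), and 2.37 (adjusted p = 0.0117) without colon library 2. P2ry1, the gene with the widest colon excess in the myenteric plexus, stood at 25.2 ± 15.2 CPM in the colon and 22.5 ± 8.66 CPM in the SI submucosal plexus (log2 fold change 0.16 ± 0.54, adjusted p = 0.925). Summed fibroblast and PDGFRA cell markers were 3697 to 7837 CPM in the colon and 1261 to 4973 CPM in the SI submucosal libraries, and summed smooth muscle markers 792 to 3267 CPM and 72.6 to 1058 CPM. Macrophage markers summed to 92.5 to 4434 CPM in the colon and 1857 to 10435 CPM in the SI, and lymphocyte markers to 1.90 to 331 CPM and 266 to 1531 CPM. Endothelial markers (4 genes) summed to 158 to 690 CPM in the colon and 14.7 to 274 CPM in the SI. Markers of interstitial cells of Cajal summed to 51.9 to 169 CPM and 22.1 to 52.3 CPM. Summed glial markers were 1048 to 5091 CPM in the colon and 522 to 1899 CPM in the SI. The colon libraries with 562 and 299 CPM of Entpd2 had glial sums of 5091 and 3988 CPM, and the 3 with 81.5 to 163 CPM had 1048 to 1749 CPM. The part of cell content in these results was not tested.

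**Figure D2:**
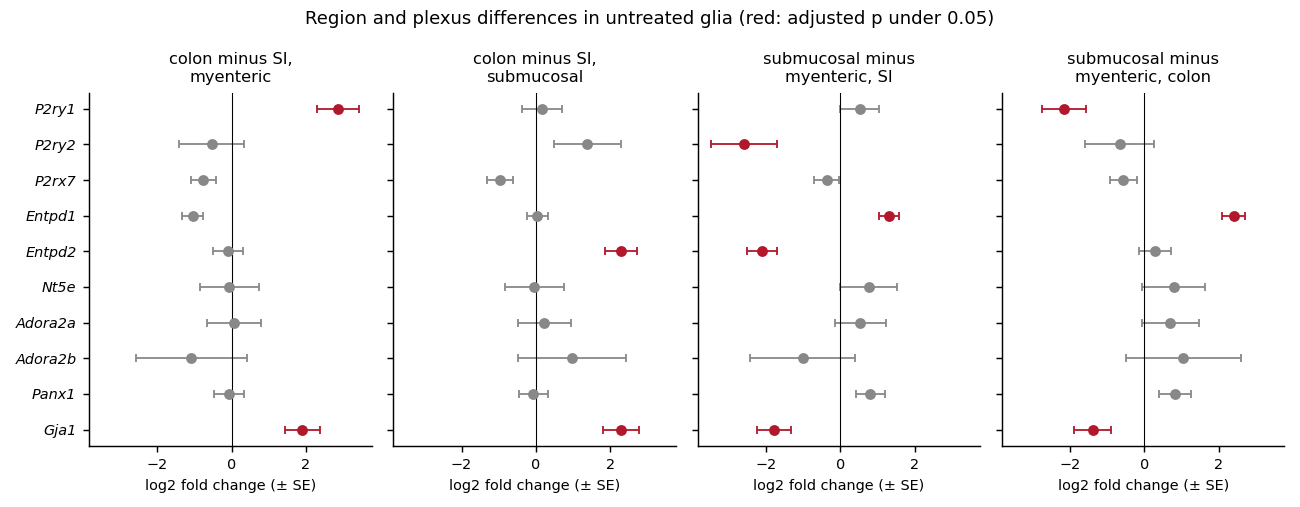
Log2 fold change with its SE (edgeR) for each of the 10 genes in 4 untreated contrasts, colon minus SI in each plexus and submucosal minus myenteric in each region, with red for adjusted p under 0.05. The contrasts share groups pairwise; P2ry1 reaches 2.86 between the myenteric plexuses and 0.16 between the submucosal ones, and Entpd2 -0.10 and 2.29.

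The control groups of the LPS experiments gave 3 further region comparisons of the myenteric plexus. None of the 10 genes was called in the 2 h PBS groups, where 0.221% of all genes were, 2 had an unadjusted p under 0.05 and DESeq2 called 1 (Gja1). Over all genes, 1394 of 13107 had such a p and DESeq2 called 546 of 13599. P2ry1 had 50.3, 85.9, 103 and 146 CPM in the colon and 0, 22.0, 25.5 and 26.7 CPM in the SI at 2 h (log2 fold change 2.36 ± 1.02, adjusted p = 0.390). Gja1 had 91.0, 234, 254 and 280 CPM in the colon and 49.7, 50.8, 69.8 and 81.1 CPM in the SI (1.77 ± 0.44, adjusted p = 0.103). For both genes all 4 colon libraries exceeded all 4 SI libraries. In the 24 h wild-type PBS groups P2ry1 again showed no overlap, with 84.0, 114, 124 and 160 CPM in the colon and 10.4, 19.7 and 44.4 CPM as lowest, median and highest in the SI (2.37 ± 0.96, adjusted p = 0.540). With the 2 groups fitted alone, its adjusted p was 0.00602. In the knockout PBS groups P2ry1 overlapped, with 2.18, 9.69, 62.1, 83.8 and 154 CPM in the colon and 11.2, 19.6, 26.9 and 34.3 CPM in the SI (1.43 ± 1.03, adjusted p = 1). Gja1 overlapped in both genotypes at 24 h. It had 109 to 201 CPM in the colon and 19.1 to 117 CPM in the SI of wild-type mice (1.25 ± 0.80, adjusted p = 0.918), and 3.64 to 319 CPM and 3.17 to 112 CPM in knockout mice (1.01 ± 0.86, adjusted p = 1).

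Entpd2 stood higher in the colon in both genotypes at 24 h, without passing the threshold in the fit of all 24 h groups without block or covariate. In wild-type mice with PBS it had 478, 500, 619 and 681 CPM in the colon and 133, 202 and 339 CPM as lowest, median and highest in the SI, with no overlap. Its log2 fold change was 1.37 ± 0.31 (adjusted p = 0.0698). With the 2 groups fitted alone the adjusted p was 0.0154, with the mouse division as a covariate 0.0492 and among mice 11 and above 0.00394. In knockout mice with PBS it had 304, 548, 554, 603 and 1264 CPM in the colon and 146, 231, 273 and 363 CPM in the SI (1.37 ± 0.34, adjusted p = 0.152). At 24 h the colon and SI libraries of 1 mouse share that mouse, and with the mouse as a replicate block (limma voom) the value was 1.47 (adjusted p = 0.00257) in wild-type and 1.30 (adjusted p = 0.0256) in knockout mice. None of the 10 genes was called in the fit without block or covariate in either genotype, against 0.141% of all genes in wild-type and 0.0805% in knockout mice. Of the 10 genes, 2 in wild-type and 1 in knockout mice had an unadjusted p under 0.05, and DESeq2 called Entpd2 in each. Over all genes, 1001 and 993 of 14903 had such a p, and DESeq2 called 183 and 161 of 16089. At 2 h Entpd2 had 232 ± 56.9 CPM in the colon and 262 ± 87.5 CPM in the SI (-0.18 ± 0.26, adjusted p = 1). In the 2 h PBS groups smooth muscle markers summed to 19382 to 72124 CPM in the colon and 2337 to 15329 CPM in the SI, and neuronal markers to 121 to 630 CPM and 1112 to 3807 CPM. In the 24 h wild-type PBS groups fibroblast and PDGFRA cell markers summed to 13545 to 21763 CPM in the colon and 1739 to 12196 CPM in the SI, and neuronal markers to 461 to 1091 CPM and 1282 to 2369 CPM. Mesothelial markers (3 genes) reached at most 81.4 CPM in the colon and at least 239 CPM in the SI in these 2 pairs of groups. None of these sums overlapped, and in the knockout PBS groups the fibroblast and PDGFRA cell sums did (2670 to 16253 and 1205 to 12012 CPM). Their part was not tested.

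The second comparison set the submucosal against the myenteric plexus within each region. Of the ectonucleotidases, Entpd1 was higher in the submucosal plexus of both regions, 5.26-fold in the colon and 2.48-fold in the SI. Entpd2 was 4.27-fold lower in the SI and not called in the colon, and Nt5e was called in neither region. Gja1 was lower in the submucosal plexus of both regions, P2ry1 lower in the colon and P2ry2 lower in the SI. In all, 3 of 10 genes were called in the colon and 4 of 10 in the SI, against 21.8% and 43.5% of all genes. The share of the members called was thus close to that of all genes.

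Entpd1 had 105, 131, 131, 169 and 191 CPM in the colon submucosal plexus, above every colon myenteric library (13.1 to 34.8 CPM), a log2 fold change of 2.40 ± 0.31 (adjusted p = 6.87e-05). In the SI the lowest, median and highest values were 54.4, 146 and 197 CPM in the submucosal and 37.4, 57.5 and 74.5 CPM in the myenteric plexus. There SI submucosal library 1 (54.4 CPM) lay within the myenteric range, and the log2 fold change was 1.31 ± 0.28 (adjusted p = 0.000681). Both calls held in every refit without 1 library (10 in the colon, 12 in the SI). The libraries rich in Entpd1 were also rich in markers of immune cells. Macrophage markers summed to 92.5 to 4434 CPM in colon submucosal against 73.4 to 481 CPM in colon myenteric libraries, and to 1857 to 10435 CPM against 124 to 2033 CPM in the SI. Lymphocyte markers (6 genes) reached 331 CPM in colon and 1531 CPM in SI submucosal libraries but at most 5.14 and 8.09 CPM in the myenteric ones, and Cd3e, Cd3g and Trac were among those at 0 in the colon myenteric group. Endothelial markers (4 genes) summed to 158 to 690 CPM in colon submucosal and 211 to 525 CPM in colon myenteric libraries, and to 14.7 to 274 CPM (median 114) in SI submucosal and 147 to 624 CPM (median 411) in SI myenteric libraries. In colon submucosal library 2 macrophage markers (92.5 CPM) lay within the range of the colon myenteric libraries and lymphocyte markers summed to 1.90 CPM. Its Entpd1 level, 105 CPM, was the lowest of its group and above every myenteric library, and its endothelial sum, 690 CPM, was the highest of its group (the others had 158 to 556 CPM). Without that library the colon log2 fold change was 2.49 (adjusted p = 4.04e-05). The part of immune and endothelial cells in the Entpd1 result was not tested.

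Entpd2 in the SI fell from 139, 234 and 255 CPM (lowest, median and highest, myenteric) to 21.4, 42.1 and 103 CPM (submucosal). The groups did not overlap, with a log2 fold change of -2.09 ± 0.41 (adjusted p = 0.000318). In the colon Entpd2 had 160, 189, 204, 204 and 224 CPM in the myenteric plexus and 81.5, 92.1, 163, 299 and 562 CPM in the submucosal plexus. The submucosal libraries lay on both sides of the myenteric ones (0.29 ± 0.43, adjusted p = 0.671). The difference between the regions' layer effects was itself called for Entpd2 (log2 interaction 2.38 ± 0.59, adjusted p = 0.0470), the 1 member of 10, against 1.19% of all genes. That call held in the 6 refits without SI myenteric library 1 or 2, colon submucosal library 1, 4 or 5, or SI submucosal library 2, and was lost in the other 16 of 22, with values over the 22 refits from 1.79 (without colon submucosal library 2) to 2.74 and adjusted p up to 0.108. Summed glial markers were lower in the submucosal than in the myenteric libraries of both regions, without overlap, as given above. The part of glial content in the Entpd2 result was not tested.

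**Figure D3:**
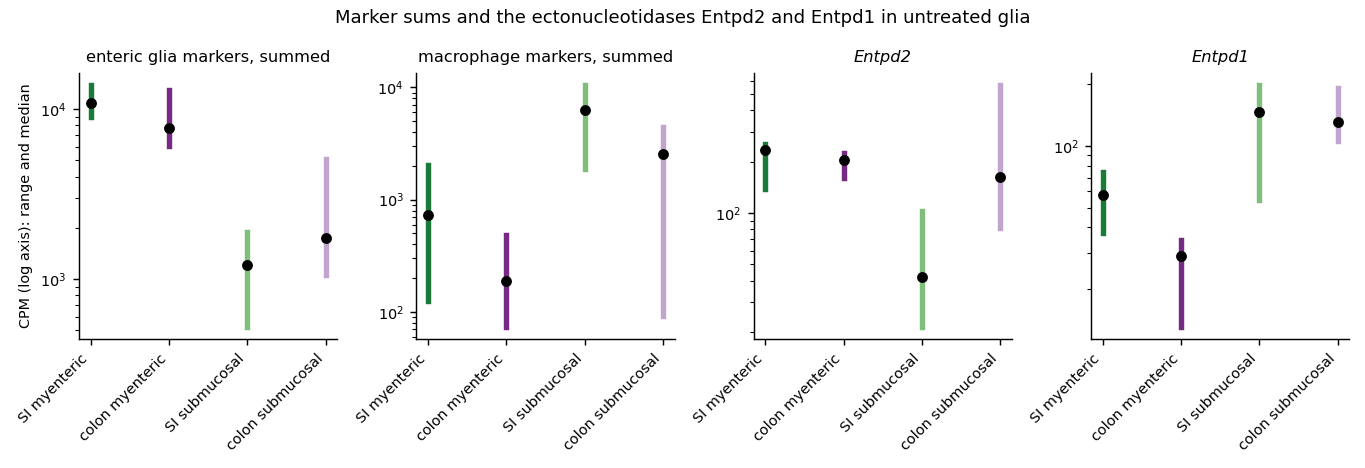
Range (bar) and median (black point) of summed enteric glial markers (8 genes), summed macrophage markers (7 genes), Entpd2 and Entpd1 in the 4 untreated groups, in CPM on log axes. Glial marker sums are lower in both submucosal groups (medians 1210 and 1749 CPM) than in the myenteric ones, Entpd2 has its lowest median, 42.1 CPM, in the SI submucosal group, and Entpd1 has medians of 131 and 146 CPM in the submucosal groups.

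Gja1 was 3.41-fold lower in the SI submucosal than in the SI myenteric plexus (4.31, 15.8 and 51.4 CPM against 41.2, 69.2 and 159 CPM as lowest, median and highest). The groups overlapped in part, and the log2 fold change was -1.77 ± 0.46 (adjusted p = 0.00364). In the colon it was 2.62-fold lower, 78.2 to 140 CPM in the submucosal against 111 to 524 CPM in the myenteric plexus (-1.39 ± 0.49, adjusted p = 0.0477). This colon call stood close to the threshold. It held in 1 of 10 refits without 1 library (without colon myenteric library 5) and was lost in the 9 others, with values over the 10 refits from -1.05 to -1.59 and adjusted p up to 0.146. It was also lost with RLE size factors, with no filter, with sex as a covariate and with the replicate block (0.0788 at most). Summed smooth muscle markers were lower in the submucosal plexus without overlap, 72.6 to 1058 CPM against 1190 to 8337 CPM in the SI and 792 to 3267 CPM against 7099 to 22793 CPM in the colon. Glial sums were lower without overlap too, as given above, and the part of these cell types in the Gja1 result was not tested.

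P2ry1 was 4.49-fold lower in the colon submucosal than in the colon myenteric plexus, with 14.5, 16.6, 21.1, 22.1 and 51.8 CPM against 50.9 to 263 CPM. Submucosal library 2 (51.8 CPM) was the one that overlapped the myenteric range, and the log2 fold change was -2.17 ± 0.58 (adjusted p = 0.0116). Without submucosal library 2 it was -2.61 (adjusted p = 0.00474), and without colon myenteric library 3, the one with 263 CPM, -1.58 (adjusted p = 0.0534). In the SI the difference was 0.53 ± 0.52 (adjusted p = 0.435). The interaction for P2ry1 was -2.69 ± 0.78 (adjusted p = 0.0895, and 0.0224 with DESeq2). Summed fibroblast and PDGFRA cell markers had medians of 6784 CPM in colon myenteric and 6247 CPM in colon submucosal libraries, and smooth muscle markers of 14176 and 1250 CPM. Markers of interstitial cells of Cajal summed to 291 to 1002 CPM and 51.9 to 169 CPM, without overlap, with 169 CPM in submucosal library 2. Their part was not tested.

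P2ry2, on chromosome 7 (100996568 to 101012053), was 6.03-fold lower in the SI submucosal plexus, with 0, 1.78 and 9.34 CPM as lowest, median and highest against 5.08, 14.7 and 38.3 CPM in the SI myenteric plexus. The groups overlapped, and the log2 fold change was -2.59 ± 0.89 (adjusted p = 0.0228). Without SI myenteric library 1 (38.3 CPM) it was -2.19 (adjusted p = 0.0606). Summed glial markers (522 to 1899 CPM against 8968 to 13759 CPM) and neuronal markers (58.3 to 173 CPM against 655 to 2431 CPM) were lower in the SI submucosal plexus as well, and their part was not tested. Of the members not called in either region, Panx1 (chromosome 9, 15005785 to 15045478) had 39.4 ± 12.7 CPM in SI submucosal and 22.5 ± 11.8 CPM in SI myenteric libraries (log2 fold change 0.81 ± 0.39, adjusted p = 0.0945). In the colon its values were 37.7 ± 13.9 and 21.4 ± 9.26 CPM (0.82 ± 0.42, adjusted p = 0.173). P2rx7 (chromosome 5, 122643927 to 122692336) ranged from 13.3 to 104 CPM over all untreated libraries, and its 4 site contrasts had adjusted p-values from 0.122 to 0.380. The genes of the adenosine branch were low in all 4 sites and were called in none of the site contrasts. Nt5e (chromosome 9, 88327609 to 88372089) had group means from 11.3 to 20.2 CPM, Adora2a (chromosome 10, 75316877 to 75334792) from 5.69 to 9.70 CPM and Adora2b (chromosome 11, 62248984 to 62266452) from 1.30 to 2.67 CPM.

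Other genes of the pathway were taken from 8 lists of receptors, surface enzymes, adenosine handling, ATP release, connexins and Gq signalling, of which 65 of 66 symbols that are not members were in the table and 49 were tested in untreated glia. Between the myenteric plexuses none of the 49 was called higher and 2 lower in the colon, against 3.19% of all genes called. Entpd3, an ectonucleotidase, had 0.873 ± 1.89 CPM in the colon and 28.8 ± 27.2 CPM in the SI (adjusted p = 0.0447). P2ry13, an ADP receptor, had at most 3 counts in any colon library and 9.44 ± 7.92 CPM in the SI (adjusted p = 0.0357). In the submucosal plexus 4 of 49 were higher in the colon and none lower, against 5.18% of all genes called, 538 higher and 192 lower. These included the channel gene Calhm5 (log2 fold change 1.70 ± 0.43, adjusted p = 0.0215), the phospholipase Plcb1 (1.65 ± 0.40, adjusted p = 0.0166) and the secreted enzyme gene Enpp2 (1.35 ± 0.37, adjusted p = 0.0336). Plcb1 (2.29 ± 0.56, adjusted p = 0.0455) and Enpp2 (2.20 ± 0.52, adjusted p = 0.0401) were also the 2 of 49 with a called interaction of layer and region, against 1.19% of all genes.

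Between the layers 9 of the 49 were higher and 5 lower in the colon submucosal plexus, and 16 higher and 14 lower in the SI submucosal plexus, where 21.8% and 43.5% of all genes were called. In the colon the lower genes included the adenosine A1 receptor Adora1 (26.2 ± 18.6 CPM myenteric, 0.737 ± 0.708 CPM submucosal, adjusted p = 0.00149), the phospholipase Plcb4 (log2 fold change -2.45 ± 0.50, adjusted p = 0.00188) and the glial connexin Gjc3 (-2.16 ± 0.53, adjusted p = 0.00663). The higher ones included P2ry10 (27.6 ± 20.2 CPM submucosal, at most 1 count in a myenteric library, adjusted p = 0.000496), P2ry13 (27.7 ± 20.4 CPM, at most 3 counts in a myenteric library, adjusted p = 0.00209) and the adenosine A3 receptor Adora3 (1.25 ± 1.28 CPM, no myenteric count, adjusted p = 0.0200). In the SI the neuronal ATP channel P2rx2 fell from 30.4 ± 12.7 to 1.38 ± 2.23 CPM (adjusted p = 0.00172) and Entpd3 from 28.8 ± 27.2 to 1.21 ± 1.89 CPM (adjusted p = 0.00449). Gjb5, a connexin, had 3.50 ± 6.23 CPM in the SI myenteric plexus and 1 count in the submucosal one (adjusted p = 0.00549). The genes higher in the SI submucosal plexus included Entpd8 (10.1 ± 10.7 CPM, adjusted p = 0.000535) and Adora3 (3.11 ± 2.48 CPM, adjusted p = 0.00197), both with no myenteric count, and the phosphatase Acpp (13.2 ± 4.14 CPM, at most 3 counts in a myenteric library, adjusted p = 0.000107). Summed neuronal markers were 655 to 2431 CPM in SI myenteric and 58.3 to 173 CPM in SI submucosal libraries, and 126 to 309 CPM and 41.8 to 104 CPM in those of the colon. The part of these and of the immune and epithelial markers in the pathway results was not tested.

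Among all genes, the 3 whose log2 CPM followed each member most closely over the 22 untreated libraries are a description of these libraries, which share site, depth and cell content. Entpd2 was followed by Npdc1, Pmp22 and Prn (Pearson r = 0.97, 0.94 and 0.91). For Gja1 they were Tpm4, Cavin3 and Rem1 (0.93, 0.93 and 0.92), and for Entpd1 Rftn1, Casp8 and Csf2rb2 (0.91, 0.89 and 0.89). P2rx7 came with Cd81, Stard8 and Plxdc2 (0.89, 0.84 and 0.83), and Panx1 with Mlxip, Plekhf2 and Clint1 (0.89, 0.85 and 0.85). The values were lower for P2ry1, with Arhgap24, Mrc2 and Isl2 (0.80, 0.79 and 0.79), and for Nt5e, with Teddm2, Ptcd2 and Cox10 (0.79, 0.78 and 0.76). Between members, the pairs with r above 0.5 in size were Entpd2 and P2ry2 (0.62), Entpd2 and Gja1 (0.60), Entpd1 and Panx1 (0.52), Entpd1 and Nt5e (0.50) and Entpd1 and Gja1 (-0.50).

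The third comparison asked how the genes respond to LPS after 2 h. In the SI myenteric plexus Gja1 rose 4.02-fold, the 1 member of 10 that was called, against 1.10% of all genes. It had 49.7, 50.8, 69.8 and 81.1 CPM with PBS and 131, 142, 214 and 528 CPM with LPS. Each LPS library exceeded each PBS library, and the log2 fold change was 2.01 ± 0.44 (adjusted p = 0.0322). The call held without LPS library 1 or 3 and was lost without any of PBS libraries 1 to 4 or LPS libraries 2 or 4 (1.36 without LPS library 2, the one with 528 CPM, to 2.23, adjusted p up to 0.141). It was also lost with sex as a covariate or with the 2 groups fitted alone (adjusted p up to 0.0754). Marker sums overlapped between the 2 groups for glia (3508 to 7508 CPM with PBS, 4410 to 8459 CPM with LPS), smooth muscle (2337 to 15329 and 1253 to 17921 CPM) and fibroblast and PDGFRA cells (1189 to 4387 and 883 to 4584 CPM).

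In the colon Gja1 had 91.0, 234, 254 and 280 CPM with PBS and 243, 345, 461 and 533 CPM with LPS. The ranges overlapped, with a log2 fold change of 0.88 ± 0.43 (adjusted p = 0.688). None of the 10 genes was called in the colon at 2 h by edgeR or by DESeq2, none had an unadjusted p under 0.05, and 0.778% of all genes were called by edgeR. The difference between the regions' Gja1 responses was -1.13 ± 0.61 (adjusted p = 1), and none of the 10 genes nor any of the 13107 tested (0%) was called for that interaction by edgeR. An unadjusted p under 0.05 was reached by 452 genes, none of them a member, and DESeq2 called 57 genes, none of them a member. Panx1 had means of 19.6 ± 9.31 CPM with PBS and 48.9 ± 24.2 CPM with LPS in the SI (1.31 ± 1.01, adjusted p = 1) and of 11.4 ± 11.5 and 39.6 ± 40.5 CPM in the colon (1.79 ± 1.03, adjusted p = 0.825). P2ry1 in the colon had 50.3 to 146 CPM with PBS and 0.401, 20.8, 33.4 and 64.5 CPM with LPS (-1.70 ± 1.00, adjusted p = 0.847). Entpd2 stayed between 162 and 373 CPM in all 16 libraries, and the remaining members had adjusted p-values of 0.993 or more in both regions.

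Of the other pathway genes 42 were tested at 2 h. In the SI the purine nucleoside phosphorylase gene Pnp, which breaks down inosine and guanosine, rose from 39.0 ± 15.8 to 131 ± 51.2 CPM (adjusted p = 0.0499), the 1 called, against 1.10% of all genes. In the colon the channel gene Calhm2 fell from 41.7 ± 12.3 to 6.53 ± 4.53 CPM (adjusted p = 0.0313). P2rx2 was called higher (7.03 ± 8.48 CPM with LPS, at most 1 count in a PBS library, adjusted p = 0.0390), so that 2 of 42 were called there, against 0.778% of all genes. P2rx2 was also called lower in the colon than in the SI of the PBS groups, where it had 69.6 ± 41.7 CPM in the SI (adjusted p = 0.0121), the 1 of 42 called in that contrast, against 0.221% of all genes. Neuronal markers (8 genes) summed to 121 to 630 CPM in the colon and 1112 to 3807 CPM in the SI of the PBS groups and to 247 to 1664 CPM in the colon with LPS, and their part was not tested.

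At 24 h after LPS 2 of the 10 genes had fallen in the wild-type colon, Entpd2 2.79-fold and P2ry1 11.0-fold, against 7.96% of all genes called. Entpd2 had 478, 500, 619 and 681 CPM with PBS and 157, 158, 211, 247 and 249 CPM with LPS. The groups did not overlap, and the log2 fold change was -1.48 ± 0.33 (adjusted p = 0.00564). It was called in each of 9 refits without 1 library (-1.38 to -1.56) and under each of 9 other settings, with values from -1.29 to -1.57. P2ry1 had 84.0, 114, 124 and 160 CPM with PBS and 1.18, 4.09, 8.87, 19.7 and 21.1 CPM with LPS. Here too no library overlapped, with a log2 fold change of -3.45 ± 1.06 (adjusted p = 0.0411). The P2ry1 call held in 2 of 9 refits without 1 library, those without LPS mouse 13 or 16. It was lost without LPS mouse 3, 5 or 8 or any PBS mouse (14, 19, 22 or 24), with values over the 9 refits from -3.16 to -3.85 and adjusted p up to 0.0893. With the mouse as a replicate block it was -3.90 (adjusted p = 0.0514).

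Of the 5 wild-type LPS colon libraries 3 came from mice numbered 10 and below (3, 5 and 8), and of the 4 PBS libraries none. Among mice numbered 11 and above alone, the log2 fold change was -1.29 (adjusted p = 0.0250) for Entpd2 and -2.54 (adjusted p = 0.0350) for P2ry1. Mice numbered 10 and below held no PBS library of this group and gave no value of their own. With that division as a covariate P2ry1 was -2.40 (adjusted p = 0.0983), and without both libraries of mouse 3 it was -3.14 (adjusted p = 0.0920). Fibroblast and PDGFRA cell markers, all 5 with counts in both groups, summed to 13545 to 21763 CPM with PBS and 659 to 8597 CPM with LPS, also without overlap. Markers of interstitial cells of Cajal (3 genes) summed to 151 to 457 CPM and 24.5 to 149.9 CPM. Summed glial markers were 3193 to 5769 CPM and 1032 to 4582 CPM. Neutrophil markers (5 genes) had a median sum of 0.347 CPM with PBS and 63.0 CPM with LPS, with Cxcr2 at 0 in both groups. The part of these cell types in the fall of P2ry1 and Entpd2 was not tested.

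Gja1 in the wild-type colon at 24 h had 109, 118, 173 and 201 CPM with PBS and 17.0, 19.1, 38.7, 45.5 and 63.1 CPM with LPS. The groups were apart, but the log2 fold change of -2.04 ± 0.86 did not pass the threshold (adjusted p = 0.130). With the 2 groups fitted alone it was -1.96 (adjusted p = 0.0372), with the mouse division as a covariate -0.44 (adjusted p = 0.780), and among mice 11 and above -1.82 (adjusted p = 0.0570). Entpd1 had 58.5 to 89.9 CPM with PBS and 0.211 to 68.4 CPM with LPS (-1.16 ± 0.92, adjusted p = 0.460). Nt5e, P2ry2, Panx1, Adora2a, Adora2b and P2rx7 had adjusted p-values from 0.287 to 0.856, and single LPS libraries carried most of the Nt5e and Adora2a counts (Nt5e 108 CPM in mouse 8, Adora2a 141 CPM in mouse 3).

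In the wild-type SI at 24 h none of the 10 genes was called (7.17% of all genes were), 1 had an unadjusted p under 0.05 and DESeq2 called 1, P2ry1 in both cases. Over all genes, 3229 of 14903 had such a p and DESeq2 called 1894 of 15077. P2ry1 had 10.4, 19.7 and 44.4 CPM as lowest, median and highest with PBS and 0.0912, 0.317, 3.33 and 7.21 CPM with LPS. All LPS libraries lay below all PBS libraries, with a log2 fold change of -3.15 ± 1.14 (adjusted p = 0.0882, 0.0140 with DESeq2, 0.0264 among mice 11 and above). The median log2 fold change over all genes was -0.13 in this contrast, and the P2ry1 change relative to it is smaller by that amount. Adora2b had 1.70, 3.18 and 6.92 CPM with PBS and 8.21, 9.63, 17.0 and 20.3 CPM with LPS, again without overlap (1.87 ± 1.22, adjusted p = 0.397). With the 2 groups fitted alone its adjusted p was 0.0324. P2ry2 had means of 13.2 ± 7.96 CPM with PBS and 35.8 ± 19.4 CPM with LPS (1.43 ± 0.72, adjusted p = 0.245, and 1.83 with 0.0488 among mice 11 and above). Entpd2 had means of 221 ± 76.9 and 186 ± 50.3 CPM (-0.25 ± 0.32, adjusted p = 0.722). P2rx7 had means of 22.5 ± 14.4 CPM with PBS and 8.66 ± 6.58 CPM with LPS (-1.37 ± 0.72, adjusted p = 0.272) and Nt5e of 6.16 ± 3.36 and 1.94 ± 1.11 CPM (-1.66 ± 1.30, adjusted p = 0.502). Adora2a, Panx1 and Entpd1 had adjusted p-values from 0.650 to 0.845, and the groups overlapped for these 5 genes. Neutrophil markers summed to 0 to 1.09 CPM with PBS and 5.82 to 605 CPM with LPS in the wild-type SI. Mesothelial markers summed to 402 to 1871 CPM and 138 to 307 CPM and epithelial markers to 191 to 1176 CPM and 72.7 to 179 CPM, all 3 without overlap. Fibroblast and PDGFRA cell markers had medians of 7069 and 3377 CPM with overlapping ranges, and the part of these cell types was not tested. For the 2 h and 24 h series different mice and different fits were used, so the Gja1 values of the SI, 2.01 at 2 h and -0.10 ± 0.82 (adjusted p = 0.968) at 24 h, stand side by side and the difference was not tested.

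**Figure D4:**
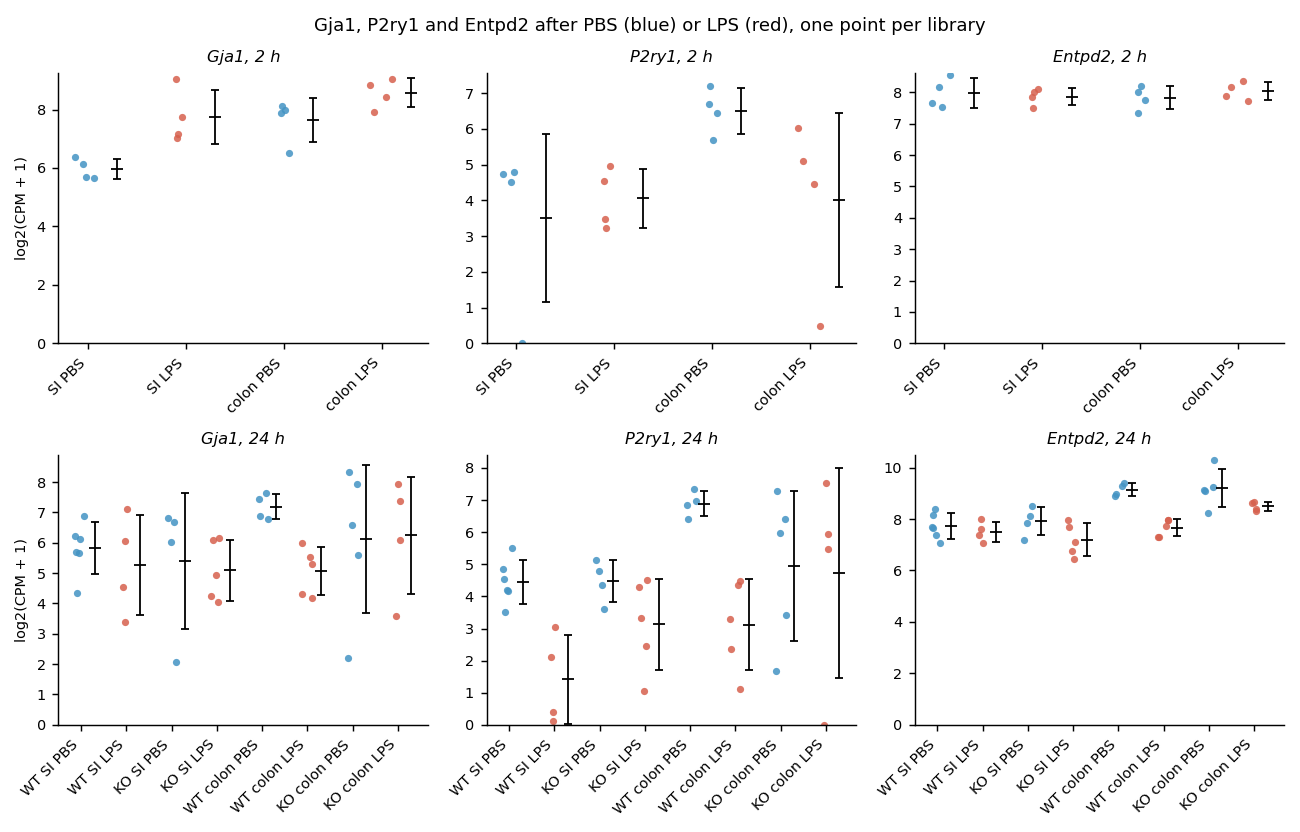
Gja1, P2ry1 and Entpd2 on the log2(CPM + 1) scale in each library after PBS (blue) or LPS (red), at 2 h in the upper row and at 24 h in wild-type (WT) and knockout (KO) mice in the lower row, with the mean and SD on that scale in black. At 2 h Gja1 is higher with LPS in the SI (131 to 528 against 49.7 to 81.1 CPM), and at 24 h P2ry1 and Entpd2 are lower with LPS in the wild-type colon (at most 21.1 and 249 CPM).

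In knockout mice at 24 h none of the 10 genes was called after LPS in either region, by edgeR or DESeq2, where edgeR called 0.718% of all genes in each, and 1 gene in each region, Entpd2, had an unadjusted p under 0.05. In the knockout colon Entpd2 had 304, 548, 554, 603 and 1264 CPM with PBS and 314, 335, 391 and 401 CPM with LPS. The LPS libraries lay above the lowest PBS library and below the other 4, with a log2 fold change of -0.86 ± 0.34 (adjusted p = 0.273). P2ry1 in the knockout colon had 2.18, 9.69, 62.1, 83.8 and 154 CPM with PBS and 0, 43.2, 60.1 and 184 CPM with LPS. The groups overlapped throughout (0.21 ± 0.99, adjusted p = 0.967). Among the knockout colon libraries that of LPS mouse 2 stood apart, with 0 CPM of P2ry1, 0.268 CPM of Entpd1, 1.61 CPM of Panx1 and 11.0 CPM of Gja1. PBS mice 1 and 7 had the lowest P2ry1, Gja1 and Entpd1 levels of their colon group. These 3 are the knockout colon libraries from mice 1 to 10, and mitochondrial genes took 17.9% (mouse 2), 16.9% (mouse 1) and 26.0% (mouse 7) of their counts, against 2.34% to 6.31% in the other 6. In the knockout SI Entpd2 had 146, 231, 273 and 363 CPM with PBS and 86.0, 106, 136, 207 and 248 CPM with LPS (-0.69 ± 0.33, adjusted p = 0.410). There P2ry1 had means of 23.0 ± 9.87 and 11.0 ± 8.94 CPM (-1.04 ± 1.00, adjusted p = 0.797). Adora2a there had 12.4 ± 8.41 CPM with PBS and 40.6 ± 30.4 CPM with LPS (1.71 ± 1.06, adjusted p = 0.598), and P2rx7, P2ry2, Panx1, Nt5e, Gja1, Adora2b and Entpd1 had adjusted p-values from 0.820 to 1. Panx1 in the knockout colon had 25.7 to 42.3 CPM with PBS and 1.61 to 22.7 CPM with LPS without overlap (-1.06 ± 0.58, adjusted p = 0.465). For the other 7 genes of the knockout colon the adjusted p-values lay between 0.462 (P2ry2) and 0.959.

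The last comparison set knockout against wild type. None of the 10 genes was called in any of the 4 contrasts of genotype or the 2 interactions of genotype and LPS, by edgeR or DESeq2. The share of all genes called by edgeR was 0% with PBS in each region and for each interaction, 0.0134% with LPS in the SI and 0.429% with LPS in the colon. An unadjusted p under 0.05 was reached by 0 of the 10 genes with PBS in the SI, with PBS in the colon and with LPS in the SI, by 4 with LPS in the colon, and by 0 and 2 for the interactions in the SI and the colon. Of all 14903 genes tested, 2448 reached it with LPS in the colon and 2009 for the colon interaction. With PBS the log2 differences lay between -0.62 (Adora2a) and 0.96 (Nt5e) in the SI and between -0.95 (P2ry1) and 0.71 (Nt5e) in the colon. Their standard errors, 0.32 to 1.29, leave room for differences of that size. With LPS in the colon Entpd2 was higher in each knockout library (314 to 401 CPM) than in each wild-type library (157 to 249 CPM), a log2 difference of 0.82 ± 0.33 (adjusted p = 0.213). P2ry1 differed by 2.71 ± 1.04 (adjusted p = 0.197), Panx1 by -1.47 ± 0.59 (adjusted p = 0.213) and Nt5e by -3.09 ± 1.40 (adjusted p = 0.261). Of these libraries 3 of 5 wild-type and 1 of 4 knockout ones came from mice 1 to 10. Among mice 11 and above the differences were 0.58 for Entpd2 (adjusted p = 0.432) and 2.20 for P2ry1 (adjusted p = 0.127), while those of Panx1 (0.50, adjusted p = 0.683) and Nt5e (2.63, adjusted p = 0.323) had the opposite sign. The remaining 6 genes had adjusted p-values from 0.305 (Gja1) to 0.996 with LPS in the colon, and all 10 from 0.682 (P2rx7) to 0.992 with LPS in the SI.

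The fall of P2ry1 and Entpd2 in the wild-type colon and the lack of a call in the knockout colon do not show that the genotypes differ, and the interaction tests that question. It was 3.66 ± 1.43 for P2ry1 (adjusted p = 0.259) and 0.62 ± 0.46 for Entpd2 (adjusted p = 0.604). Fibroblast and PDGFRA cell markers in the colon had medians of 17106 CPM with PBS and 2900 CPM with LPS in wild-type mice and of 11021 and 14743 CPM in knockout mice. Their part was not tested.

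Of the other pathway genes 52 were tested at 24 h. In the wild-type SI the calcium channel gene Itpr1 fell from 54.8 ± 15.0 to 3.79 ± 1.67 CPM (adjusted p = 0.00354) and the adenosine kinase gene Adk from 152 ± 50.1 to 71.9 ± 7.21 CPM (adjusted p = 0.00500), the 2 of 52 called, against 7.17% of all genes. The mesothelial, epithelial and neutrophil sums that differed between these groups are given above, and their part was not tested. Adk, which removes adenosine inside the cell, also fell in the knockout SI, from 195 ± 28.1 to 97.3 ± 15.5 CPM (adjusted p = 0.0418), the 1 of 52 called there, against 0.718% of all genes. Neutrophil markers summed there to 0.156 to 0.495 CPM with PBS and 6.90 to 1384 CPM with LPS. Mesothelial markers had medians of 1449 and 465 CPM with overlapping ranges, and the part of these cell types was not tested. In the wild-type colon 5 of 52 fell and none rose, where 7.96% of all genes were called, 590 higher and 596 lower. These included the ATP channel P2rx6 (13.8 ± 4.30 to 0.40 ± 0.549 CPM, adjusted p = 0.0307) and the UDP-glucose receptor P2ry14 (59.0 ± 12.5 to 3.03 ± 4.15 CPM, adjusted p = 0.0402). Of these colon libraries 3 of 5 with LPS and 0 of 4 with PBS came from mice 1 to 10. The fibroblast and PDGFRA cell sums and those of interstitial cells of Cajal that differed between these groups are given above. Their part in these falls was not tested. In the knockout colon Entpd3 rose from 0.478 ± 0.897 to 10.2 ± 11.2 CPM (adjusted p = 0.0409), again the 1 of 52 called, against 0.718% of all genes. With PBS it was lower in the knockout colon than in the knockout SI, where it had 18.6 ± 12.0 CPM (adjusted p = 0.0497), where 0.0805% of all genes were called. None of the 52 was called in any contrast of genotype.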

How the data were processed

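Smart-seq2 libraries, which carry no molecular identifiers, were made from small amounts of RNA, per the labels. Raw counts per gene symbol were deposited by the authors in 2 tables. The submitters' processing notes name Trim Galore 0.4.4, STAR 2.5.3, DESeq2 and the build GRCm38; the counter, the annotation and the use of strand are not given in the sources used here. Each of the 3 experiments was fitted in 1 model (edgeR 4.0.16 in R 4.3.3, filterByExpr, TMM, glmQLFit and glmQLFTest), which left 14090, 13107 and 14903 genes, and 21 contrasts were adjusted over all genes by the Benjamini-Hochberg method. All 75 columns were mapped to a sample. SE is the log2 fold change divided by the square root of F. All 10 genes were tested in every contrast, and those not called are given in part by their range of adjusted p. Of the pathway lists, up to 3 called genes per direction with the greatest log2 fold change were named (1 such gene is not reported here), and for members with a mean of 10 CPM or more in untreated libraries the 3 most correlated genes (log2 CPM, prior count 2). The members and lists were chosen with earlier results of these data known.

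Alternatives were RLE size factors, DESeq2 1.42.0, no filter, sex as covariate, the compared groups alone, a replicate block (limma 3.58.1 voom at 24 h), a covariate for mice 1 to 10 against 11 and above, and each library left out. Leaving out mouse 3 and keeping mice 11 and above were added after seeing the data. The covariate for mice 1 to 10 rests on the same division, which was seen in the data and is not in the labels. At 24 h the mouse in the labels pairs colon and SI libraries (mean correlation of deviations 0.12 within and -0.00 between mice); groups compared for LPS or genotype share no mouse. Across 143 replicate pairs none was identical. The model was tested on simulated data. Gene positions are from RefSeq on GRCm38.p6, and exon lengths are from the GENCODE annotation. Figures used matplotlib 3.10.9.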

Additional observations from a re-analysis of the deposited data

Results flagged for a closer look

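Of 160 groups of 4 to 6 libraries (10 genes in 16 groups), 16 had 1 library far from the others by Dixon's test, 13 high and 3 low; chance alone sets apart about 1 in 20 groups. In untreated glia these were P2ry1 in colon submucosal library 2 (51.8 CPM), P2ry2 in colon myenteric library 5 (36.6 CPM), Entpd2 in SI submucosal library 2 (103 CPM) and Gja1 in SI myenteric library 1 (159 CPM). At 2 h they were Adora2a in colon LPS library 1 (22.1 CPM), and Adora2b in colon PBS library 1 (5.36 CPM) and SI LPS library 4 (4.77 CPM). At 24 h P2rx7 was set apart in 5 groups: high in the wild-type colon with LPS (mouse 5, 63.7 CPM), the wild-type SI with PBS (mouse 9, 51.9 CPM), the knockout SI with LPS (mouse 11, 62.4 CPM) and the knockout colon with PBS (mouse 1, 77.8 CPM), and low in the knockout colon with LPS (mouse 2, 3.48 CPM). The last library was also low for Panx1 (1.61 CPM). Panx1 was high in the wild-type SI with PBS (mouse 14, 80.9 CPM), Adora2a in the wild-type colon with LPS (mouse 3, 141 CPM), and Nt5e was low in the knockout SI with PBS (mouse 20, 11.1 CPM), in a group that spans 11.1 to 12.4 CPM.

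The layer effect of Entpd2 differed between the regions by a test of the difference itself (log2 interaction 2.38, edgeR adjusted p = 0.0470): Entpd2 was lower in the submucosal than in the myenteric plexus of the SI, and in the colon its submucosal libraries lay on both sides of the myenteric ones. The call held in only 6 of 22 refits without 1 library (adjusted p up to 0.108). Without colon submucosal library 2 the term was 1.79.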

How the results depend on the processing

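Of 210 tests (10 genes in 21 contrasts) 15 were called, while over all genes edgeR called 0% to 43.5% in a contrast. The largest shares were 21.8% between the layers of the colon and 43.5% between those of the SI. The counts here are calls of the 10 genes summed over contrasts, so that a gene can count more than once. No called value changed sign under any alternative or with any library left out; of the 195 not called, 62 changed sign under some alternative. In the region contrasts there were 4 calls and 8 with DESeq2, and 3 to 5 with 1 library left out. Over all genes DESeq2 also called more than edgeR in each region contrast, such as 546 against 29 in the 2 h PBS groups. In the layer contrasts there were 5 to 8 calls of the 10 genes with 1 library left out. After LPS at 2 h there was 1 call, 0 with sex as covariate or the compared groups alone, and 0 to 1 with 1 library left out. After LPS at 24 h there were 2 calls, 1 with no filter, the replicate block, the mouse number covariate or without mouse 3, 4 with the compared groups alone or mice 11 and above, and 1 to 3 with 1 library left out. For knockout against wild type the count was 0 under each setting and 0 to 0 with 1 library left out. The cause of these shifts was not tested, save that the sets of libraries or genes fitted differ.

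The replicate block gave 6 calls in the region contrasts, 7 in the layer contrasts and 1 at 2 h. In untreated and 2 h libraries same-numbered libraries share only a sex and a number (mean correlation 0.093 and 0.060). Over all genes DESeq2 differed from edgeR by over 1.5 times in 19 of 21 contrasts: 449 and 1035 genes between the myenteric plexuses, 730 and 1164 between the submucosal ones, 168 and 577 for the interaction, 144 and 280 for the SI at 2 h, and 1186 and 2306 for the wild-type colon at 24 h. The groups alone differed in 13 of 21 (3069 and 1902 for the colon layers, 1186 and 412 for the wild-type colon) and the block in 11 (449 and 246, 1186 and 1899). Adora2b rests on few counts, with 0 in some libraries of most groups, which limits what its tests can show.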
